A study of Caenorhabditis elegans with 6 samples.

Results

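The 10 genes studied act in S-adenosylmethionine metabolism, in transsulfuration from homocysteine to cysteine and in phosphatidylcholine synthesis, and include the regulator gene sbp-1. Of them 3 had lower transcript levels in bcf-1(ylf1) worms than in wild-type N2 worms and 0 had higher ones. Among all tested genes 15% were called lower and 34.6% higher. The 3 called lower included sbp-1, which encodes the worm SREBP transcription factor, and cth-2, which encodes a cystathionine gamma-lyase. The third, close to the threshold, was pcyt-1, which encodes the enzyme that activates phosphocholine for phosphatidylcholine synthesis. The mean of sbp-1 was 2.19-fold lower and that of cth-2 2.42-fold lower. The S-adenosylmethionine synthetase genes sams-1, sams-3 and sams-4, the hydrolase gene ahcy-1 and the methyltransferase genes pmt-1 and pmt-2 stayed within 1.27-fold of N2 in either direction, and none of them passed the test. Nor did the transsulfuration gene cbl-1. Each of these genes did pass under another scaling of the libraries. Over 12 alternative settings 2 to 6 of the 10 genes were called lower and 0 to 3 higher. The genes were chosen by name, by matching the RefSeq locus tag of each row to the symbols sams-1, sams-3, sams-4, ahcy-1, pmt-1, pmt-2, pcyt-1, cbl-1, cth-2 and sbp-1. All 10 were found among 20894 rows, and all 10 passed the filter on low values, as did 13576 rows in all.

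RNA was sequenced from whole Caenorhabditis elegans labelled as adults, fed on Escherichia coli OP50, the usual laboratory food. The groups were 3 libraries of N2, the wild-type strain, and 3 of bcf-1(ylf1), a mutant of a gene whose product is described in the series title as a glycosylated intestinal protein that binds bacteria. Each library was an independent biological replicate per the series design text. The labels name 1 mutant allele and no rescued strain, and they give neither the age in days nor the change that ylf1 makes in the gene. Values are read as FPKM, fragments per transcript length and library size, and differences were tested with limma on log2(FPKM + 1), with p-values adjusted over all 13576 tested genes at a threshold of 0.05.

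S-adenosylmethionine is the methyl donor of the cell. It is made from methionine by the SAMS enzymes, and after a methyl transfer it becomes S-adenosylhomocysteine, which AHCY-1 splits into adenosine and homocysteine. Homocysteine is either methylated back to methionine or passed through cystathionine to cysteine. Worms, unlike mammals, make phosphocholine by methylating phosphoethanolamine with PMT-1 and then PMT-2, and PCYT-1 activates phosphocholine for phosphatidylcholine synthesis, so this phospholipid is a large consumer of S-adenosylmethionine. In the worm, loss of sams-1 or of phosphatidylcholine synthesis is known to raise the processing of SBP-1 and the expression of its lipid synthesis targets, and the intestine is a main site of this response.

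The libraries matched their genotype labels at the targeted gene. bcf-1 lay at 374, 412 and 499 FPKM in N2 replicates 1 to 3 and at 63.7, 72.1 and 60.01 FPKM in mutant replicates 1 to 3, although its neighbouring paralogue gfi-1 moved with it and reads of these similar genes may have been shared. The genotypes differed across the whole table, since 6738 of 13576 tested genes (49.6%) were called, with 4703 higher (34.6%) and 2035 lower (15%) in the mutant. Over all of them the log2 change had a median of 0.24. Median-ratio scaling, which centres each library on its median gene, removes such a shift by design. After it the median was 0.0017, and 3065 genes were called higher and 3096 lower. N2 replicate 1 stood apart from the other N2 libraries on the second principal component, at 28.9 against -14.9 and -13.4, so counts are also given without it. The mutant libraries were spread on this component too, with replicates 1 to 3 at 2.92, -16.9 and 13.5. Markers of the adult stage were low in the mutant libraries: all 10 fell, and their summed level was 3620 to 6295 FPKM in N2 and 28.0 to 70.3 FPKM in the mutant. Among them the yolk protein gene vit-2 fell from 940 ± 228 to 8.43 ± 5.19 FPKM, the related gene vit-6 from 1377 ± 235.5 to 12.2 ± 6.28 FPKM and the adult cuticle collagen gene col-19 from 774 ± 220 to 17.3 ± 6.46 FPKM (SD, n = 3 each). The part of such a difference in stage in the values below was not tested.

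Levels of the 10 genes spanned a wide range, and FPKM allows them to be compared per length. In N2 the order ran from ahcy-1 at 2517 ± 224 FPKM through pmt-2 at 694 ± 74.8, sams-1 at 372 ± 20.8, cth-2 at 285 ± 32.8, pmt-1 at 251 ± 12.9, sams-3 at 123 ± 12.98, sams-4 at 93.1 ± 4.72, pcyt-1 at 37.2 ± 5.38 and sbp-1 at 22.3 ± 1.095 to cbl-1 at 16.7 ± 1.45 FPKM. ahcy-1 exceeded 99.9% of tested genes in mean N2 level and cbl-1 60.9%. Neighbours in this order did not overlap between libraries, except cth-2 and pmt-1. In the mutant cth-2 moved from the fourth place to the sixth, between sams-3 and sams-4, and its libraries overlapped those of sams-4. sbp-1 moved below cbl-1 to the last place, so that it exceeded 43.1% of tested genes in mean level in the mutant against 68.7% in N2.

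**Figure D1:**
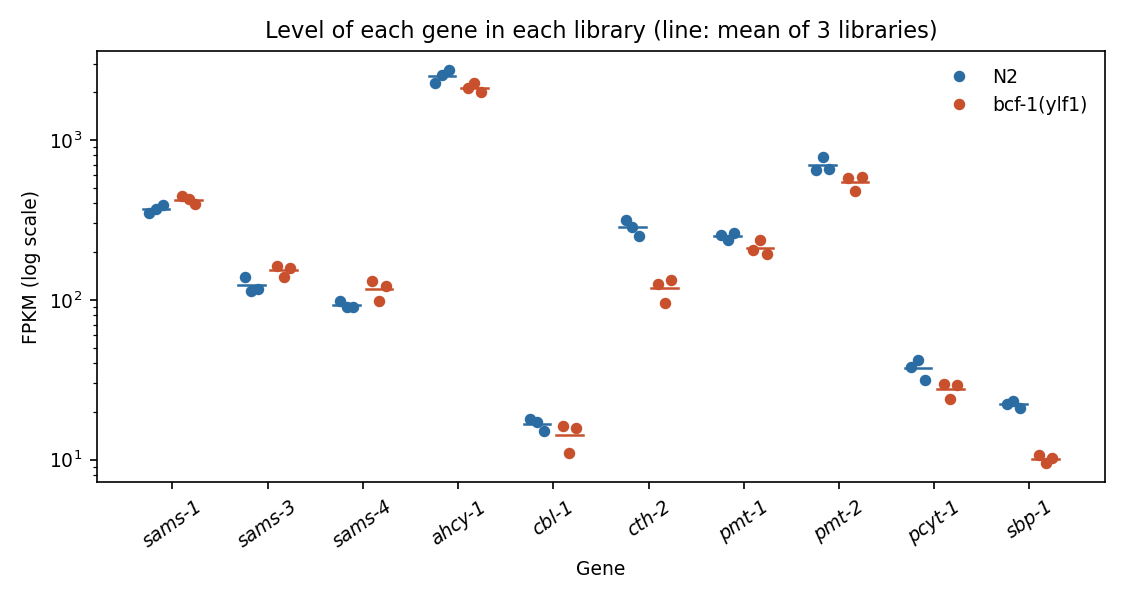
FPKM (log scale) of the 10 genes in each of 3 N2 libraries (blue) and 3 bcf-1(ylf1) libraries (orange), with lines at the group means. The groups are well apart for cth-2 and sbp-1, while sams-4 and cbl-1 overlap between the genotypes.

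The synthetase genes were slightly higher in the mutant without passing the test. sams-1 (C49F5.1; WBcel235 chromosome X, 11965962 to 11969893, plus strand) has the highest level of the synthetase genes and is the synthetase most tied to phosphatidylcholine in the worm. It lay at 351, 371 and 393 FPKM in N2 and at 446, 425 and 396 FPKM in the mutant. Every mutant library was above every N2 library, but the closest pair differed by little, at 393 and 396 FPKM. The log2 change was 0.18 (SE 0.11, 95% interval -0.06 to 0.43, limma adjusted p = 0.187), which is below the median of all genes, and its sign depends on the scaling: median-ratio scaling gave -0.08 and quantile normalisation gave 0.52, past the threshold (limma adjusted p = 0.00309).

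sams-3 (C06E7.1; chromosome IV, 5848657 to 5850843, plus strand) and sams-4 (C06E7.3; chromosome IV, 5844061 to 5846369, minus strand) encode close copies of the enzyme and lie head to head, 2287 bases apart with 0 protein-coding genes between them. sams-3 was at 138, 113.9 and 118 FPKM in N2 and at 164, 139 and 157 FPKM in the mutant. sams-4 was at 98.5, 90.1 and 90.6 FPKM in N2 and at 131, 98.1 and 122 FPKM in the mutant. The genotypes were just apart for sams-3 and overlapped for sams-4, through mutant replicate 2. Their log2 changes of 0.31 and 0.32 (SE 0.13 each, limma adjusted p = 0.0639 and 0.0794) were nearly equal. sams-3 passed the threshold without N2 replicate 1 (limma adjusted p = 0.0188) and sams-4 without mutant replicate 2 (limma adjusted p = 0.0252). Median-ratio scaling gave 0.05 and 0.06, and quantile normalisation gave 0.45 and 0.42, past the threshold.

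Because the copies are similar, reads may have been divided between sams-3 and sams-4 in a way the sources used here do not give. The ratio of sams-4 to sams-3, chosen after the values were seen, was 0.758 ± 0.0401 in N2 and 0.759 ± 0.0469 in the mutant (SD, n = 3 each). Their sum was 216 ± 17.7 FPKM in N2 and 270.1 ± 29.7 FPKM in the mutant. With sams-1 included the sum was 588 ± 13.1 FPKM in N2 and 692 ± 41.6 FPKM in the mutant, 1.18-fold higher. The groups did not overlap (exact permutation test, two-sided, p = 0.1, the smallest that 3 against 3 allows), where 40.4% of all tested genes were higher without overlap. The log2 change of this sum, 0.23 on FPKM, was close to the median of 0.24 over all tested genes on log2(FPKM + 1). Both sums were also chosen after the values were seen and, unlike ratios within a library, depend on the scaling.

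The remaining synthetase gene, sams-5 (T13A10.11; chromosome IV, 6277433 to 6279522, minus strand), which is not among the 10, did rise. It lay at 23.3, 12.6 and 15.1 FPKM in N2 and at 59.3, 41.2 and 65.01 FPKM in the mutant, a 3.24-fold higher mean (log2 change 1.66, SE 0.24, limma adjusted p = 0.000579). It remained a small part of the family: sams-5 held 2.81% ± 0.889 of the summed FPKM of the 4 genes in N2 and 7.35% ± 1.46 in the mutant (SD, n = 3 each). This share was also chosen after the values were seen. If reads were shared between similar sams genes, part of the sams-5 level could come from its higher copies, which was not tested.

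ahcy-1 (K02F2.2; chromosome I, 6836469 to 6838140, plus strand) encodes the hydrolase that removes S-adenosylhomocysteine, an inhibitor of methyltransferases. It lay at 2275, 2557 and 2719 FPKM in N2 and at 2096, 2268 and 1991 FPKM in the mutant. All mutant libraries were below all N2 libraries, by as little as 2268 against 2275 FPKM. The log2 change was -0.25 (SE 0.12, 95% interval -0.52 to 0.02, limma adjusted p = 0.113), and it ran from -0.51 to -0.19 over 12 alternative settings. Quantile normalisation brought it past the threshold, at -0.30 (limma adjusted p = 0.0435).

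The transsulfuration genes differed from each other. cth-2 (ZK1127.10; chromosome II, 7056184 to 7057960, minus strand) encodes an enzyme that splits cystathionine to release cysteine. It fell from 317, 287 and 252 FPKM in N2 to 126, 95.9 and 132 FPKM in the mutant. The lowest N2 library was still well above the highest mutant library. The log2 change was -1.27 (SE 0.15, limma adjusted p = 0.0002), and cth-2 kept its call under all 12 alternatives, at -1.53 to -1.09. cbl-1 (C12C8.2; chromosome I, 9327857 to 9330928, plus strand), whose symbol stands for cystathionine beta-lyase, was at 17.9, 17.1 and 15.1 FPKM in N2 and at 16.2, 11.04 and 15.8 FPKM in the mutant. Its genotypes overlapped, and mutant replicate 2 was the low library. The log2 change of -0.22 (SE 0.17, 95% interval -0.61 to 0.17, limma adjusted p = 0.312) became -0.47 with median-ratio scaling and -0.43 with quantile normalisation, both past the threshold (limma adjusted p = 0.0322 and 0.0475), and it was -0.06 without mutant replicate 2.

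Both phosphoethanolamine methyltransferase genes were a little lower in the mutant without passing the test. pmt-1 (ZK622.3; chromosome II, 5278090 to 5282523, minus strand) encodes the enzyme of the first methylation. It lay at 253, 237 and 262 FPKM in N2 and at 204, 235.1 and 192 FPKM in the mutant. The groups touched without overlapping, at 237 and 235.1 FPKM. pmt-2 (F54D11.1; chromosome V, 4628580 to 4635263, plus strand) encodes the enzyme that completes the series to phosphocholine. It was at 645, 780 and 657 FPKM in N2 and at 582, 481 and 582 FPKM in the mutant, again with no overlap. The log2 changes were -0.26 for pmt-1 and -0.34 for pmt-2 (SE 0.12 and 0.13, 95% intervals -0.52 to 0.01 and -0.63 to -0.05, limma adjusted p = 0.101 and 0.056). Median-ratio scaling brought both past the threshold, at -0.52 and -0.60 (limma adjusted p = 0.0182 and 0.0167), whereas quantile normalisation left pmt-1 at -0.00 and pmt-2 at -0.09 (limma adjusted p = 0.982 and 0.597). pmt-2 also passed without N2 replicate 1 (limma adjusted p = 0.0475).

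pcyt-1 (F08C6.2; chromosome X, 7572357 to 7581055, plus strand) encodes the enzyme that forms CDP-choline, usually the slow step of the pathway. It fell from 38.1, 42.1 and 31.5 FPKM in N2 to 29.7, 23.9 and 29.2 FPKM in the mutant. The groups did not overlap, with N2 replicate 3 close above mutant replicate 1. The mean was 1.35-fold lower and the log2 change -0.42 (SE 0.15, limma adjusted p = 0.0482). The direction held under all 12 alternatives, at -0.67 to -0.32, but the call was lost in 8 of them. Those included leaving out N2 replicate 1 or 2 (limma adjusted p = 0.0741 and 0.141) or mutant replicate 1, 2 or 3 (limma adjusted p = 0.0898, 0.147 and 0.0887).

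sbp-1 (Y47D3B.7; chromosome III, 11428367 to 11442566, minus strand) encodes the SREBP protein, a membrane-bound transcription factor that is cut to release its active part and then switches on lipid synthesis genes. Its transcript fell from 22.3, 23.3 and 21.1 FPKM in N2 to 10.7, 9.57 and 10.2 FPKM in the mutant. The spread within each genotype was small, with coefficients of variation of 4.92% in N2 and 5.39% in the mutant, and the groups were far apart. The log2 change was -1.06 (SE 0.13, 95% interval -1.35 to -0.77, limma adjusted p = 0.000207), and 6.23% of tested genes had a lower one. It stayed between -1.31 and -1.02 and past the threshold under all 12 alternatives. The sbp-1 and idpc-1 gene models, on opposite strands, share 48 exonic bases of the 3394 of sbp-1. Those of sams-3 and C06E7.4 share 18 bases, and those of cth-2 and ZK1127.3 share 8. Whether reads were assigned by strand was not stated in the labels or the header.

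The genes whose 6 library values, centred on their mean on the log2(FPKM + 1) scale, lay nearest to those of sbp-1 were aagr-3, mab-9 and F15E6.6. Their largest difference from sbp-1 in any library was 0.04, 0.06 and 0.07 on this scale. The scale compresses low genes, and on log2 FPKM the differences were 0.06, 0.30 and 0.05, so that mab-9 was less like sbp-1. aagr-3, named for an acid alpha-glucosidase, went from 248 ± 13.2 to 116 ± 3.92 FPKM, mab-9, a T-box transcription factor gene, from 3.80 ± 0.296 to 1.26 ± 0.171 FPKM and F15E6.6 from 11.96 ± 0.679 to 5.33 ± 0.346 FPKM (SD, n = 3 each). These genes were picked from all tested genes for their likeness over 6 libraries, which is a description with no test.

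**Figure D2:**
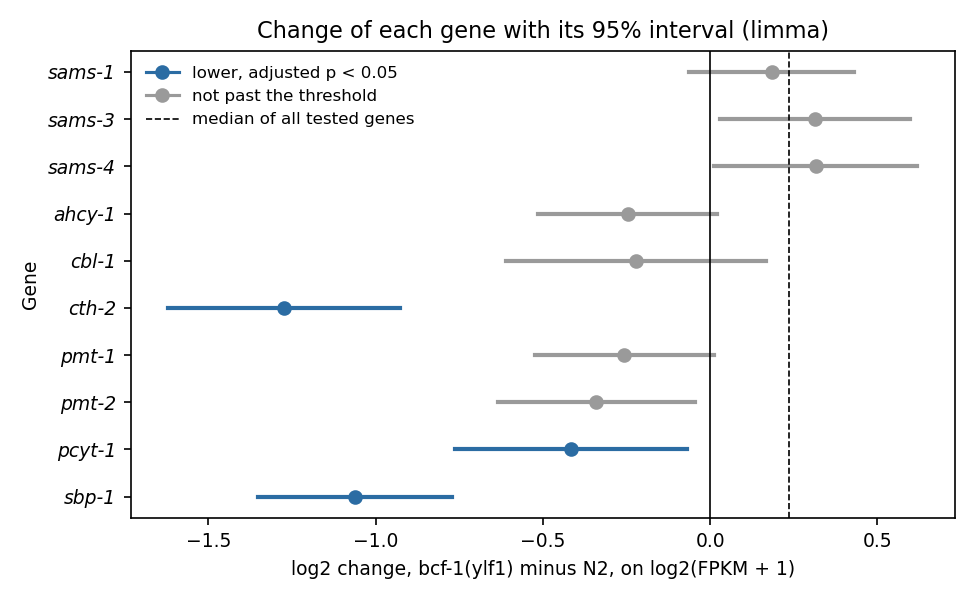
Log2 change (bcf-1(ylf1) minus N2, on log2(FPKM + 1)) of the 10 genes with 95% intervals from limma, with a solid line at 0 and a dashed line at the median of all tested genes, 0.24. cth-2, pcyt-1 and sbp-1 (blue) passed the threshold, and the 3 sams genes lie near the dashed line, with the sign of sams-1 turning under median-ratio scaling.

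Across the 10 genes, 0 were called higher and 3 lower, against 34.6% higher and 15% lower of all tested genes. At an unadjusted limma threshold of 0.05 there were 2 higher, sams-3 and sams-4, and 4 lower, with pmt-2 as the fourth, against 39.8% and 16.8% of all tested genes. The median log2 change of the 10 was -0.25, which is -0.49 relative to the median of all tested genes. With median-ratio scaling 0 were called higher and 6 lower, where 22.6% and 22.8% of all tested genes were. With quantile normalisation 3 were higher and 5 lower, against 24% and 20.6% of all tested genes. Without N2 replicate 1 there were 1 higher, sams-3, and 3 lower, cth-2, sbp-1 and pmt-2, against 42.8% and 14% of all genes tested then. The genotypes did not overlap in 8 of the 10 genes, 2 with higher and 6 with lower values in the mutant, where 58.4% of all tested genes did the same, 40.4% with higher and 18.0% with lower values.

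**Figure D3:**
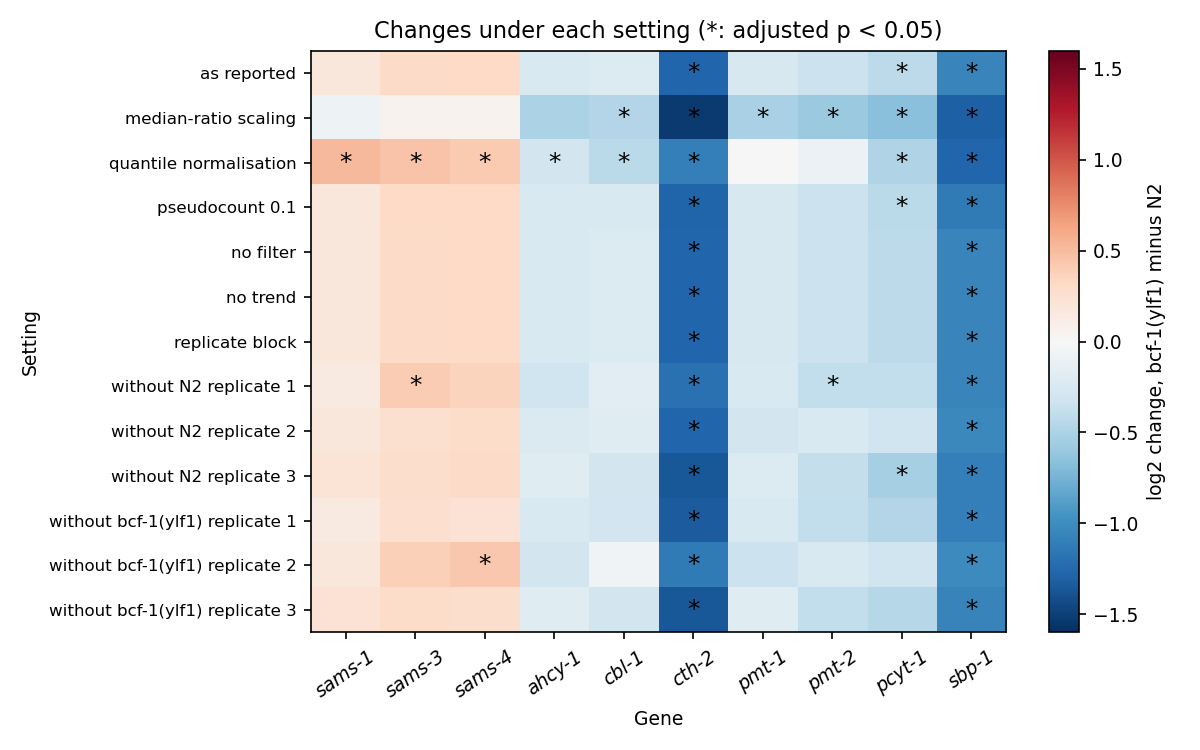
Log2 change (colour) of the 10 genes (columns) as reported and under 12 alternative settings (rows), with stars where the limma adjusted p was under 0.05. cth-2 and sbp-1 carry stars in every row, pcyt-1 keeps its direction but not its call, and the sams and pmt columns change shade with the scaling.

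Ratios between genes of the same library do not depend on a single scaling factor for that library, and 5 were compared. Quantile normalisation is no such factor, and the ratios were not recomputed under it. There the log2 changes of cth-2 and cbl-1 were -1.09 and -0.43, against -1.27 and -0.22 as reported. The ratio of cth-2 to cbl-1 was 17.7, 16.8 and 16.7 in N2 and 7.78, 8.69 and 8.39 in the mutant. The mean ratio was 2.06-fold lower in the mutant, with little spread within either genotype. The ratio of ahcy-1 to the sum of sams-1, sams-3 and sams-4 was 3.87, 4.45 and 4.52 in N2 and 2.83, 3.42 and 2.95 in the mutant, 1.39-fold lower in the mean. Both ratios separated the genotypes without overlap (exact permutation test, two-sided, p = 0.1 each, the smallest possible with 3 against 3, and 0.25 when adjusted over 5 ratios).

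The other 3 ratios overlapped between the genotypes. The ratio of sams-3 plus sams-4 to sams-1 was 0.585 ± 0.0776 in N2 and 0.641 ± 0.0759 in the mutant, that of pmt-2 to pmt-1 was 2.78 ± 0.443 and 2.64 ± 0.526, and that of pcyt-1 to the sum of pmt-1 and pmt-2 was 0.0394 ± 0.00446 and 0.0363 ± 0.00249 (SD, n = 3 each). Their exact permutation p-values were 0.4, 0.8 and 0.4. The difference in pmt-2 to pmt-1 changed sign without N2 replicate 2 or mutant replicate 2.

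**Figure D4:**
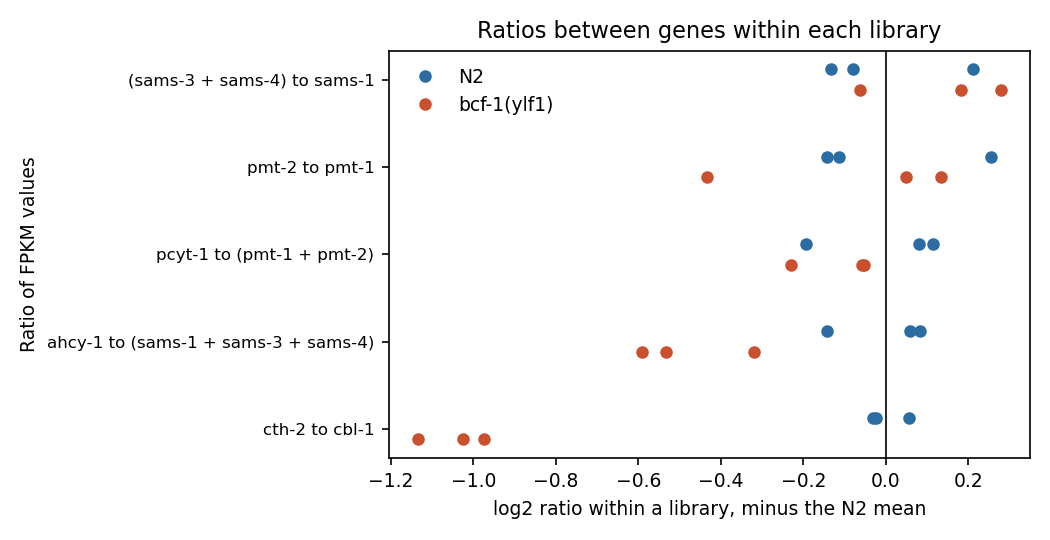
Log2 ratio of FPKM values within each library, minus the N2 mean, for 5 pairs or sums of genes in 3 N2 libraries (blue) and 3 bcf-1(ylf1) libraries (orange). The ratios of cth-2 to cbl-1 and of ahcy-1 to the sams genes separate the genotypes, and the other 3 overlap.

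Because sbp-1 and the lipid enzymes are used strongly in the intestine, markers of this tissue are given beside them. Of 12 intestine markers 7 fell and 1, the aspartic protease gene asp-1, rose, where 15% of all tested genes fell and 34.6% rose. Among the markers 0 were at 0 in either genotype. The call of asp-1 was lost after median-ratio scaling and without N2 replicate 1, N2 replicate 2 or mutant replicate 1. The summed level of the list, of which asp-1 held 5210 ± 867 FPKM in N2 and 7520 ± 852 FPKM in the mutant, was 6718 to 8861 FPKM in N2 and 8518 to 10444 FPKM in the mutant. elt-2, the intestinal GATA factor gene, fell from 28.7 ± 1.68 to 20.5 ± 0.908 FPKM (SD, n = 3 each). Its call was lost without mutant replicate 1 or 3 (limma adjusted p = 0.0555 and 0.0679). Over 12 alternative settings 5 to 7 of the intestine markers were called lower. The 7 markers that fell were 1.40-fold (elt-2) to 2.93-fold (ifp-1, an intestinal filament gene) lower, a range that holds the 2.19-fold of sbp-1. This range covers only markers called lower. Over all 12 markers the mean in N2 over that in the mutant ran from 0.69 (asp-1) to 2.93. The level of sbp-1 was therefore divided by that of each of the 12 markers, which was added after the values were seen. The ratio of sbp-1 to elt-2 was 0.775 ± 0.0166 in N2 and 0.495 ± 0.0389 in the mutant, 1.56-fold lower, but that to elt-7, another intestinal GATA factor gene, was 1.43 and 1.47 and overlapped between the genotypes. Of the 12 ratios of sbp-1, 7 were lower in the mutant without overlap, 1 (to ifb-2) was higher without overlap and 4 (to elt-7, ges-1, ifc-2 and ifp-1) overlapped. The 7 lower ratios were those to markers whose mean was higher in the mutant or at most 1.46-fold lower. Such counts therefore follow from the changes of the markers and are no separate test. For cth-2, 7 ratios were lower, 0 were higher and 5 overlapped, and for pcyt-1, 4 were lower, 3 were higher and 5 overlapped. Whether sbp-1 was lower relative to intestine markers thus depended on the marker taken. In whole animals fewer cells of a type and less RNA per cell cannot be told apart. Markers of other tissues were counted beside the same shares, 34.6% higher and 15% lower. Of 9 hypodermis markers 8 rose and 1 fell. Of 12 germline markers 7 rose and 0 fell (11 rose without N2 replicate 1, where 42.8% of all genes tested then did). Of 6 body wall muscle markers 4 rose and 0 fell, and of 8 neuron markers 2 rose and 0 fell. The median log2 changes were 1.15, 0.64, 0.66 and 0.31 in this order, against 0.24 for all tested genes. The summed levels were 283 to 392 FPKM in N2 and 890 to 1014 FPKM in the mutant for hypodermis, 642 to 1145 and 1103 to 1178 FPKM for germline, 1679 to 1878 and 2244 to 2426 FPKM for muscle, and 311 to 337 and 357 to 398 FPKM for neurons, and their part in the results was not tested.

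Around the 10 genes, the methionine and folate cycle went both ways. Of 16 listed genes, all tested, 3 rose, 8 fell and 5 were not called, with a median log2 change of -0.47. Here and for each list below, the counts stand beside 34.6% of all tested genes called higher and 15% called lower. The rises were of sams-5, of metr-1, the methionine synthase gene, from 113 ± 2.87 to 214 ± 16.8 FPKM, and of mthf-1, the methylenetetrahydrofolate reductase gene, from 185 ± 9.92 to 283 ± 27.04 FPKM. mthf-1 was named after its values were seen, and its call was lost after median-ratio scaling (0.34, limma adjusted p = 0.0677). The falls included gcsh-1, gcsh-2 and gldc-1 of the glycine cleavage system and atic-1 of purine synthesis. gcsh-1 fell from 61.9 ± 2.99 to 16.01 ± 0.715 FPKM, gcsh-2 from 182 ± 10.7 to 91.3 ± 4.70 FPKM, gldc-1 from 172 ± 24.8 to 69.4 ± 6.93 FPKM and atic-1 from 210 ± 31.2 to 53.8 ± 6.85 FPKM. The other genes that fell were mel-32, dao-3, folt-1 and gcst-1, named after their values were seen, which handle the folate one-carbon units or glycine.

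In the list of transsulfuration, sulfide and glutathione synthesis, 19 of 21 genes were tested, 5 rose and 4 fell, with a median of -0.06. cth-1, the paralogue of cth-2, fell most of the list, from 183, 193 and 140 FPKM in N2 to 26.8, 15.5 and 24.4 FPKM in the mutant, 7.73-fold lower. Relative to cth-2, a ratio chosen after the values were seen, it went from 0.602 ± 0.0628 to 0.186 ± 0.0256, so the paralogues moved unequally. cbs-1, a cystathionine beta-synthase gene upstream of both, fell from 18.0 ± 1.57 to 8.87 ± 0.691 FPKM, while its paralogue cbs-2 rose from 4.84 ± 0.526 to 11.6 ± 2.41 FPKM. cysl-2, a cysteine synthase-like gene, rose from 21.1 ± 0.0985 to 35.9 ± 2.00 FPKM. Without mutant replicate 1 or without mutant replicate 3, 2 genes of this list fell.

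Of the consumers of S-adenosylmethionine, 13 of 15 genes for small-molecule methyltransferases and polyamine synthesis were tested, and 3 rose and 3 fell, with a median of -0.01. Named for catechol O-methyltransferases, comt-2 rose from 0.395 ± 0.0889 to 6.41 ± 0.557 FPKM and comt-1 from 0.244 ± 0.0737 to 4.46 ± 0.364 FPKM, both passing the filter only through the mutant libraries. The polyamine synthesis genes odc-1 (ornithine decarboxylase) and spds-1 (spermidine synthase) fell, from 136 ± 23.1 to 46.0 ± 5.76 FPKM and from 84.2 ± 14.9 to 27.7 ± 3.55 FPKM. With a mutant library left out, comt-1 and comt-2 no longer met the filter and were not tested, so that 1 of the remaining genes was called higher. Of 23 protein, histone and RNA methyltransferase genes 6 rose and 0 fell, where 34.6% of all tested genes rose and 15% fell. Their median was 0.26, close to that of all genes. set-2, which encodes a histone H3 lysine 4 methyltransferase, rose from 9.62 ± 1.91 to 20.99 ± 0.152 FPKM and set-16 from 8.43 ± 0.0182 to 13.4 ± 0.283 FPKM. dot-1.1 rose by 0.50 and set-32 by 0.71 log2 units. Leaving out N2 replicate 1 gave 12 rises, against 42.8% of all genes tested then, and leaving out mutant replicate 1 gave 3. With median-ratio scaling there were 3 and dot-1.1 was not called, and after quantile normalisation 1 gene of the list fell and set-16 and set-32 were not called.

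In the Kennedy pathway and the making of phosphatidylserine and phosphatidylethanolamine, 17 of 18 genes were tested, 3 rose and 4 fell, with a median of -0.16. ckc-1, a choline kinase C gene, fell from 75.4 ± 13.4 to 18.95 ± 0.684 FPKM and cka-1, a choline kinase A gene, from 40.5 ± 7.96 to 25.9 ± 1.43 FPKM. cept-1, named for the choline and ethanolamine phosphotransferase that acts after PCYT-1, fell from 50.8 ± 8.43 to 26.6 ± 3.68 FPKM. psd-1, the phosphatidylserine decarboxylase gene, rose from 20.7 ± 3.11 to 34.5 ± 2.23 FPKM. Median-ratio scaling gave 2 rises and 9 falls and quantile normalisation 2 rises and 8 falls, and without mutant replicate 1 there was 1 rise.

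Among SBP-1 processing factors and cofactors, 9 of 10 genes were tested, and 1 rose and 1 fell, with a median of 0.18. scp-1, the SCAP gene whose product escorts SBP-1 to its processing, fell from 25.3 ± 3.62 to 15.9 ± 0.919 FPKM. nhr-49, a nuclear receptor gene of fat metabolism, rose from 45.2 ± 3.05 to 65.3 ± 1.99 FPKM, a call lost after median-ratio scaling, where 2 of the list fell. nhr-80 and cic-1 had log2 changes of -0.32 and 0.29 (limma adjusted p = 0.0966 and 0.175), and nhr-80 passed the threshold under both scalings and without N2 replicate 1.

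Lipid synthesis genes linked to SBP-1 went both ways. Of 13 tested, 3 rose and 4 fell, with a median of -0.12. The sign of this median depended on the scaling: after quantile normalisation it was 0.15, against 0.07 for all tested genes. The elongase gene elo-5 fell from 289 ± 28.0 to 189 ± 11.1 FPKM, elo-6 from 537 ± 180 to 205 ± 73.8 FPKM and the desaturase gene fat-7 from 99.7 ± 14.3 to 31.6 ± 1.74 FPKM. The rises included fat-5, another desaturase gene, from 9.74 ± 2.07 to 19.3 ± 5.23 FPKM and fasn-1, which makes fatty acids, from 33.9 ± 2.84 to 82.4 ± 5.89 FPKM. fat-6, a desaturase gene, and pod-2, the acetyl-CoA carboxylase gene, had log2 changes of -0.16 and 0.19 that missed the threshold (limma adjusted p = 0.312 and 0.236). The sign of fat-6 turned after quantile normalisation and that of pod-2 after median-ratio scaling, and pod-2 passed without N2 replicate 1, where 5 of the list rose.

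Of 9 genes of the vitamin B12 and methionine-cycle transcription response, 1 rose and 2 fell, with a median of -0.16. nhr-68, a nuclear receptor gene of the propionate response, fell from 104 ± 16.9 to 63.4 ± 7.85 FPKM and its target acdh-1 from 1909 ± 326 to 1246 ± 203 FPKM, the latter not called without N2 replicate 2, where 1 gene fell. pcca-1, a propionyl-CoA carboxylase gene, rose from 94.2 ± 9.50 to 130 ± 6.76 FPKM, a call lost after median-ratio scaling and without mutant replicate 1. nhr-114, a nuclear receptor gene known to raise methionine cycle genes when the cycle runs low, had a log2 change of -0.26 (limma adjusted p = 0.112). After median-ratio scaling 0 of this list rose and 5 fell.

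**Figure D5:**
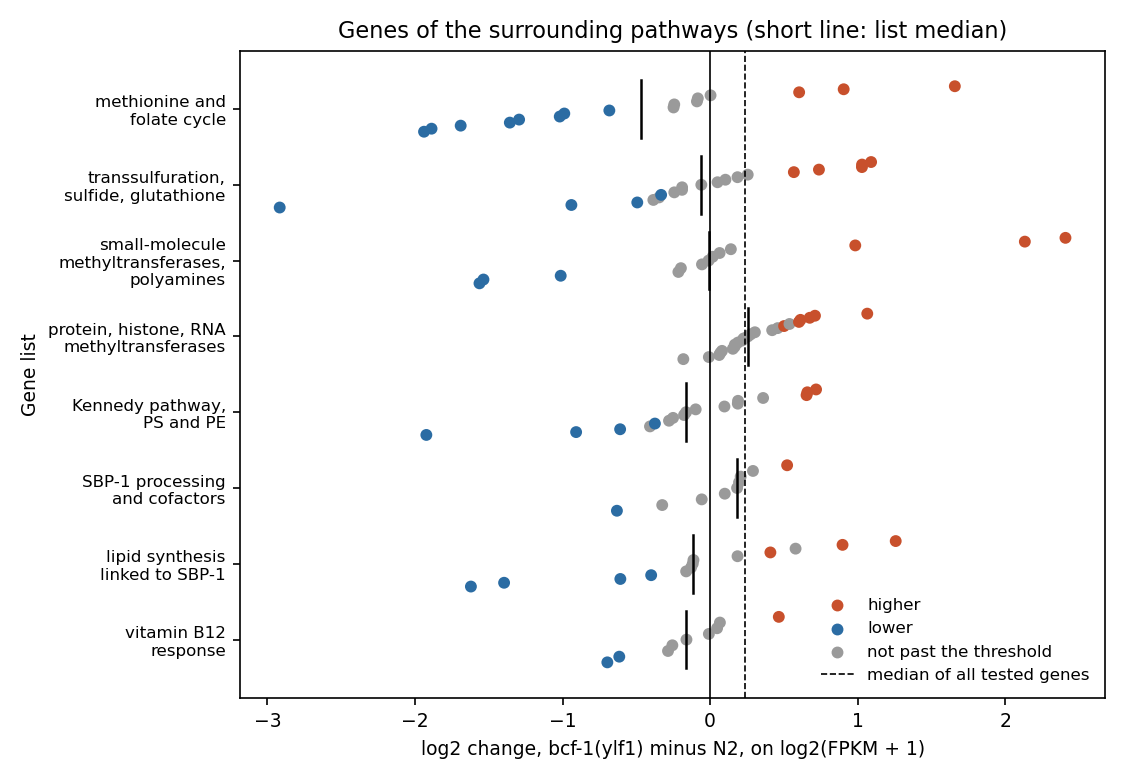
Log2 change (bcf-1(ylf1) minus N2, on log2(FPKM + 1)) of each tested gene in 8 lists around the 10 genes, with short lines at the list medians and a dashed line at the median of all tested genes, 0.24 (PS, phosphatidylserine; PE, phosphatidylethanolamine). Genes called higher (orange) and lower (blue) occur together in 7 of the lists, and the protein, histone and RNA methyltransferases hold 6 rises and 0 falls, with 1 fall after quantile normalisation. Among all tested genes 34.6% were called higher and 15% lower.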

How the data were processed

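The authors deposited 1 table with a value for each gene and library, read here as FPKM. No unit is named in the table or in the labels, so it was inferred: values are not whole numbers, columns sum to 659249 to 687573, and genes detected in only 1 library have lower values where exons are longer (Spearman correlation across genes -0.567 to -0.272). The submitters' processing notes name fastp and the WBcel235 build. The aligner, quantifier and strand setting were not stated. Only 21.1% to 39.5% of those single-library values, times length, lay within 10% of the commonest, so whole reads were not recovered, depth is unknown and no counting interval is given.

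RefSeq locus tags of WBcel235 matched 19959 of 20894 rows to symbols, and positions are from Ensembl gene models of that build. Rows reaching 1 FPKM in 3 or more libraries were fitted with limma 3.58.1 in R 4.3.3 on log2(FPKM + 1), with genotype as the only term and a mean-variance trend, two-sided, with Benjamini-Hochberg adjustment over 13576 genes. The fit was tested on simulated data. The change of low genes is understated on this scale. Fold values compare mean FPKM. Named genes were the 10, sams-5, metr-1, up to 4 of smallest p per pathway list, 5 lipid and 3 adult genes, and the 3 nearest to sbp-1. Genes and lists were chosen with earlier results of these data known. Alternatives were 2 scalings, a pseudocount of 0.1, no filter beyond a value above 0, no trend, a replicate block and leaving out each library. Promoter and protein sequences were not used here.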

Additional observations from a re-analysis of the deposited data

How the results depend on the processing

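Over 12 alternatives each, cth-2 and sbp-1 kept direction and call, and so did 29 of the 35 other named genes that were called, in every alternative that gave a value. Median-ratio scaling turned sams-1 to -0.08 and pod-2 to -0.07 and brought pmt-1 (-0.52), pmt-2 (-0.60) and cbl-1 (-0.47) past the threshold. It called 6 of the 10 genes lower, and among the lists it called 3 methyltransferase genes higher, 9 Kennedy pathway genes lower, 0 SBP-1 factors higher and 2 lower, and 0 vitamin B12 genes higher and 5 lower, with 3065 of all genes higher and 3096 lower. Quantile normalisation turned fat-6 to 0.15 and brought sams-1 (0.52), sams-3 (0.45), sams-4 (0.42), ahcy-1 (-0.30) and cbl-1 (-0.43) past the threshold. It also turned the median of the lipid synthesis list to 0.15. It called 3 of the 10 higher and 5 lower, 1 methyltransferase gene, 8 Kennedy pathway genes and 2 SBP-1 factors lower. pcyt-1 lost its call at -0.42 without a filter, without the trend and with the replicate block (limma adjusted p = 0.0611, 0.0532 and 0.091). Why these values move was not tested.

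Leaving out 1 library at a time gave log2 changes of 0.26 to 0.40 for sams-3, 0.23 to 0.43 for sams-4, -0.39 to -0.25 for pmt-2 and -0.53 to -0.32 for pcyt-1. It gave 0 to 1 of the 10 higher, 2 to 5 transsulfuration genes lower, 1 to 3 small-molecule methyltransferase genes higher (1 where comt-1 and comt-2 fell under the filter), 3 to 12 protein, histone and RNA methyltransferase genes higher, 1 to 3 Kennedy pathway genes higher, 1 to 2 SBP-1 factors lower, 2 to 5 lipid synthesis genes higher, 0 to 1 vitamin B12 genes higher and 1 to 3 lower, and 2877 to 5720 of all genes higher. The mean log2 ratio of pmt-2 to pmt-1 ran from -0.19 to 0.09. Same-numbered libraries of the genotypes deviated with correlations of 0.00972, -0.0737 and -0.277, so the numbers were not taken as pairs, and the replicate block changed no other call among the 10 genes. Differently numbered libraries gave correlations of -0.195 to 0.336, the highest for N2 replicate 3 with mutant replicate 2. Whether libraries shared a preparation was not tested. Depth is unknown, so limits on low genes could not be set.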
